A study of Sus scrofa with 207 samples.

Results

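XIRP1 and XIRP2, the Xin actin-binding repeat proteins of striated muscle, were described in pig muscle together with vinculin (VCL), the beta subunit of the actin capping protein (CAPZB) and desmin (DES). A probe set, the group of short probes that measures 1 transcript on the array, was taken where its only gene symbol in the array annotation was one of 6 genes: these 5 and filamin C (FLNC). The rule found 10 probe sets of 5 genes among 23935 probe sets and 6765 genes with a single-symbol probe set: 1 each for XIRP1 and XIRP2, 3 for VCL, 3 for CAPZB and 2 for DES. FLNC had no probe set under this rule and was not analysed here. All 10 carried the gene number and symbol of the same gene in the RefSeq gene table.

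Costameres are protein assemblies that tie the Z discs of the outermost myofibrils to the membrane of the muscle fibre, and so carry force sideways to the matrix. Vinculin sits in their integrin-based arm, where it joins talin to actin filaments. Desmin forms the intermediate filaments that link Z discs to each other and to the membrane, and CapZ, of which CAPZB is a subunit, caps the barbed ends of thin filaments at the Z disc. The Xin proteins bind and bundle actin filaments through their Xin repeats, bind filamin C, and occur at the attachment sites of myofibrils. XIRP1 is known from mouse and human muscle as a gene that is raised in damaged and regenerating fibres. In meat, the breakdown of desmin and of the links between myofibrils and membrane after slaughter is a much studied part of water loss.

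Total RNA of muscle taken at slaughter was hybridised to Affymetrix Porcine Genome Arrays, 1 array for each of 207 commercial crossbred pigs of the herd Pix(DLxDE), slaughtered at a mean end weight of 110 kg. The animals formed 1 group, and the labels gave 2 measurements of the longissimus muscle of each. Drip loss, given in percent of the starting weight of a piece of meat hung in a bag, averaged 5.37 ± 2.22% (SD, n = 207), with a lowest value of 1.45%, a median of 5.26% and a highest value of 10.82%. Fat area on the same muscle averaged 15.0 ± 3.15 cm2 (SD) and was lacking for 8 of the 207 animals.

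The values were deposited on a log2 scale with a floor at 4, and no member lay at the floor on any array. Array medians lay between 5.96 and 6.18. Of the arrays, 24 correlated less with the others than the rest did, down to a median r of 0.944 against a typical 0.978, and another 13 lacked the signal of the spiked control RNA. Sample numbers fell into a higher series of 33 animals and a lower series of the rest, and were split into 10 blocks of 10 to 35 animals to stand for batches, which the labels do not name. Of 11 skeletal muscle markers 8 were measured, and their mean lay between 13.69 and 13.96 on all arrays. In such bulk samples, fewer cells of a type and less RNA per cell cannot be told apart. The number of arrays limits the precision.

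XIRP1 varied most among the members. Its log2 value was 9.39 in the lowest animal, 12.90 in the median animal and 13.78 in the highest, a 21.0-fold range, and its SD of 0.77 was larger than that of 99.2% of all tested probe sets. The animals did not spread evenly: 91 lay at 13 or above, 83 between 12 and 13, 24 between 11 and 12, 8 between 10 and 11, and 1 below 10. XIRP1 was thus high in most animals, with a tail of low ones. The median of the 10 blocks ranged between 12.35 and 13.39, and the blocks held 9.59% of its variance.

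XIRP2 had a narrower spread. It was 11.12 in the lowest animal, 12.47 in the median animal and 13.76 in the highest, with an SD of 0.39 that exceeded the SD of 90.9% of tested probe sets. Of the animals, 21 lay below 12 and 10 at 13 or above. The lowest and the highest XIRP2 values both came from arrays with low correlation to the others. Without those 24 arrays, XIRP2 lay between 11.27 and 13.24. Blocks held 19.0% of its variance.

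Vinculin was steadier. Its brightest probe set (VCL 1) was 10.71 in the lowest animal, 11.47 in the median animal and 12.35 in the highest, with an SD of 0.25, close to the middle of all probe sets (larger than 54.4% of them). Its median was 11.76 in the 24 low-correlation arrays, against 11.46 in the others. The other probe sets of the gene were dim, with means below the median of all tested probe sets: VCL 2 lay between 4.65 and 7.10 (median 5.56) and VCL 3 between 4.15 and 5.44 (median 4.98). VCL 1 correlated with VCL 2 over the 207 animals (Pearson's r = 0.32, permutation test, adjusted p = 5.3e-05 over 7 pairs of probe sets of 1 gene) and not with VCL 3 (r = -0.05, adjusted p = 0.47). Results for vinculin therefore rest on VCL 1.

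CAPZB was measured by 3 probe sets above the median of all tested ones, and they correlated with each other. CAPZB 1 was 7.27 in the lowest animal, 8.32 in the median animal and 8.90 in the highest (SD 0.26). CAPZB 2 lay between 7.23 and 8.94 (median 8.04, SD 0.29) and CAPZB 3 between 6.18 and 8.50 (median 7.26, SD 0.47). Pearson's r was 0.67 between CAPZB 1 and 2, 0.55 between 1 and 3, and 0.80 between 2 and 3, each with an adjusted permutation p of 2.3e-05. Blocks held 19.0% of the variance of CAPZB 1.

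Desmin was the least variable of the 5 genes by the SD of the brightest probe set. DES 1 was 12.22 in the lowest animal, 12.71 in the median animal and 13.36 in the highest, a 2.20-fold range, and its SD of 0.22 exceeded that of only 32.1% of tested probe sets. The dim probe set DES 2 was 4.48 in the lowest animal, 5.20 in the median animal, 5.43 at its upper quartile and 7.79 in the highest animal. It did not track DES 1 (r = 0.09, permutation test, adjusted p = 0.20).

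**Figure D1:**
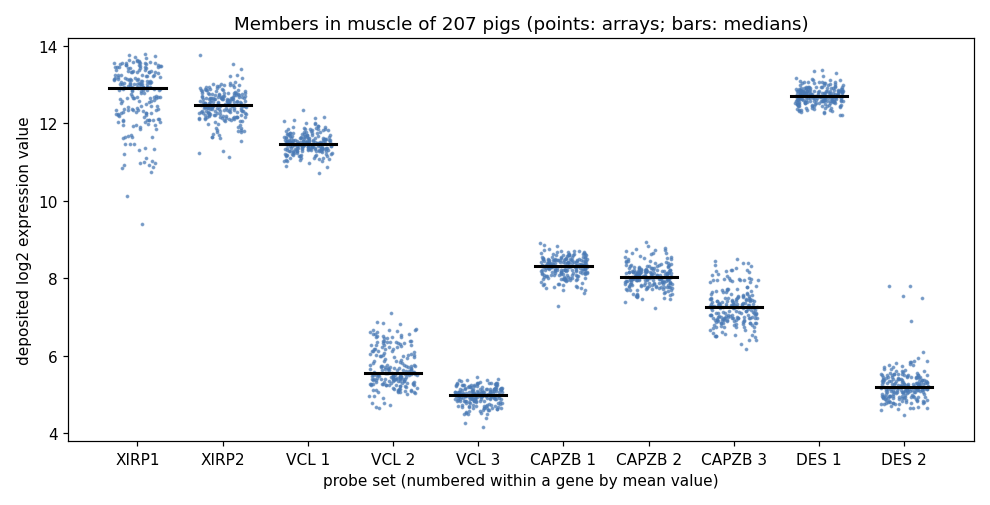
Deposited log2 values (vertical axis) of the 10 member probe sets (horizontal axis), 1 point per array of 207, with black bars at the medians. XIRP1 spread between 9.39 and 13.78 with a tail of low animals, whereas DES 1 stayed between 12.22 and 13.36; heights of different probe sets are not comparable.

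The Xin genes rose and fell together across animals, and XIRP2 also tracked vinculin. CAPZB 1, the brightest of its gene, ran against XIRP1 and against DES 1, which its other probe sets did not show to the same extent. Of the 10 pairs among the 5 genes, each represented by its brightest probe set, 4 passed a permutation test adjusted over the pairs, with r between -0.24 and 0.37. These relations describe animals, and each pair shares its arrays.

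XIRP1 and XIRP2 correlated with Pearson's r = 0.37 and Spearman's rho = 0.41 (n = 207, permutation test with 100000 resamples, p = 1e-05, the smallest it can give, adjusted p = 1e-04 for r and 5e-05 for rho). The value was 0.38 without the 2 animals farthest from the median of XIRP1, 0.32 with values centred within blocks, and positive in 8 of 10 blocks, where it ran between -0.19 and 0.82. In the 33 animals of the higher number series it was 0.0098, against 0.42 in the lower series, a difference that was not tested. XIRP1 had a higher r with XIRP2 than with 97.6% of the other genes, and XIRP2 a higher r with XIRP1 than with 91.5% of them, although many genes were far closer to either.

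XIRP2 and VCL correlated with r = 0.30 and rho = 0.39 (adjusted permutation p = 1.5e-04 and 5e-05). The relation was positive in 8 of 10 blocks (centred r = 0.26), and was -0.04 once 5 principal components of all probe sets had been removed. XIRP1 and CAPZB had r = -0.22 and rho = -0.24 (adjusted p = 0.0038 and 0.0017). That pair was negative in 6 of 10 blocks, and with values centred within blocks r was -0.15 and the adjusted permutation p 0.088. CAPZB and DES had r = -0.24 and rho = -0.17 (adjusted p = 0.0016 and 0.039), were negative in 9 of 10 blocks, and had r = -0.22 without the 2 farthest animals. Both pairs rest on CAPZB 1: for CAPZB 2 and CAPZB 3, r was -0.07 and -0.09 with XIRP1, and -0.09 and 0.09 with DES 1.

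The remaining 6 pairs did not pass on Pearson's r, with adjusted permutation p between 0.067 for XIRP2 with CAPZB (r = -0.15) and 0.74 for XIRP1 with DES (r = 0.02). XIRP1 with VCL had r = 0.11 and VCL with DES also had r = 0.11. Among single probe sets, the largest r between different genes was 0.62, between the dim VCL 2 and CAPZB 3. The part of RNA or labelling quality, measured by the 3′ minus 5′ signal of the control transcripts, in this r was not tested.

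**Figure D2:**
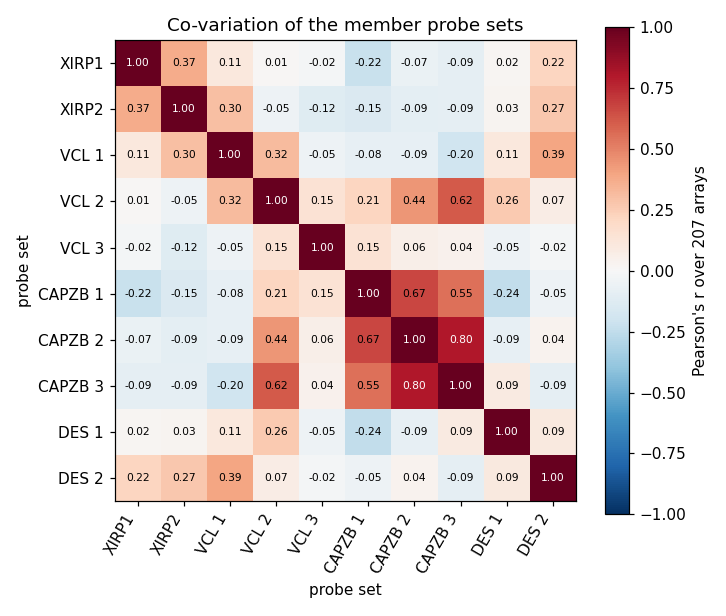
Pearson's r over 207 arrays between the 10 member probe sets, with both axes listing the probe sets and colour giving r (red positive, blue negative). The 3 CAPZB probe sets form a block (0.55 to 0.80), XIRP1 and XIRP2 share 0.37, and CAPZB 1 is negative with XIRP1 (-0.22) and DES 1 (-0.24).

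Each member had its own closest genes among the 6764 others, ranked by r over the 207 arrays and given here as a description without a test. For XIRP1 they were ATF3 (r = 0.82), a stress-induced transcription factor, TRAFD1 (0.82), a zinc finger protein of innate immune signalling, PPP1R15A (0.80), which directs phosphatase 1 to the initiation factor eIF2-alpha, TNFRSF12A (0.79), the receptor for the cytokine TWEAK, and ANKRD1 (0.78), a stretch-responsive ankyrin repeat protein that binds titin. Centred within blocks these r lay between 0.77 and 0.85. At the other end stood CEP85, a centrosomal protein (r = -0.66), the homeobox gene SIX4 (-0.64) and the zinc finger gene ZNF3 (-0.64).

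The 2 ends of the XIRP1 range show the size of this shared variation. The animal with the highest XIRP1 (13.78) had ATF3 at 12.81, ANKRD1 at 13.50, TNFRSF12A at 12.63 and PPP1R15A at 9.66. The animal with the lowest XIRP1 (9.39) had ATF3 at 7.83, ANKRD1 at 10.86, TNFRSF12A at 9.98 and PPP1R15A at 7.40. Their drip losses were 4.94% and 3.66%, and neither array was among the low-correlation ones. The other members were 12.99 (XIRP2), 11.79 (VCL), 7.92 (CAPZB) and 12.90 (DES) in the animal with the highest XIRP1, and 12.19, 11.29, 8.50 and 12.58 in the one with the lowest.

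The genes closest to XIRP2 were others: BCLAF1 (r = 0.84), an RNA- and transcription-associated nuclear protein, the kinesin-binding membrane protein KTN1 (0.79), NOP58 (0.78), a core protein of box C/D small nucleolar ribonucleoproteins, COPS2 (0.77), a subunit of the COP9 signalosome, and SSB (0.75), the RNA-binding La protein. Without the low-correlation arrays these values lay between 0.67 and 0.78. The lowest were the neonatal Fc receptor FCGRT (-0.65), B4GAT1 (-0.59), which takes part in the glycosylation of alpha-dystroglycan, and the interleukin 11 receptor IL11RA (-0.59). XIRP2 also correlated with the first principal component of all probe sets (r = 0.71, adjusted permutation p = 1.2e-04 over 70 relations of the 5 genes with array and marker measures). XIRP1 had r = 0.15 with it, and r = 0.29 with the second component (adjusted permutation p = 2.6e-04). The second component had r = 0.19 with XIRP2, 0.53 with VCL and -0.39 with CAPZB. Its r with drip loss was -0.23 (adjusted permutation p = 0.0064 over 14 relations), against -0.17 for the first (adjusted p = 0.079).

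VCL was closest to PRRC2C (r = 0.70), the deubiquitinase USP7 (0.70), NACA (0.65), a subunit of the nascent polypeptide-associated complex, FAM208B (0.64) and the splicing co-factor SRRM1 (0.64). Its lowest were the syntaxin STX8 (-0.70), NAA38 (-0.67), a subunit of an N-terminal acetyltransferase, and BOLA3 (-0.67), a mitochondrial iron-sulphur cluster factor. VCL also correlated with the median r of an array with the others (r = -0.34, adjusted permutation p = 1.2e-04), and without the low-correlation arrays its 5 highest values lay between 0.58 and 0.65.

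CAPZB had the weakest closest genes of the 5 members: CAMK2G (r = 0.55), a calcium/calmodulin-dependent kinase subunit, ARL6IP5 (0.54), LOC100521518 (0.51), PSPH (0.50), the last enzyme of serine synthesis, and EGF (0.48). The autophagy protein WIPI1 (-0.49), the spliceosomal GTPase EFTUD2 (-0.47) and POLR1A (-0.47), the largest subunit of RNA polymerase I, were lowest. CAPZB also correlated with the mean of 5 measured fibroblast markers of 7 (r = 0.38, adjusted permutation p = 1.2e-04, positive in 10 of 10 blocks). Marker means tracked other members too. VCL had r = -0.28 with fibroblast and -0.30 with smooth muscle markers (adjusted permutation p = 2.9e-04 and 2.6e-04). Its r with satellite cell markers was 0.26 (4e-04). XIRP2 had r = 0.29 with skeletal muscle markers (3.2e-04), and XIRP1 -0.20 with fibroblast markers (0.016). The part of cell types in these values was not tested.

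DES was closest to MACF1 (r = 0.64), a giant linker of actin filaments and microtubules, PDLIM3 (0.58), a Z disc protein that binds alpha-actinin, WDR45 (0.53), AP2M1 (0.52), an adaptor of endocytosis, and TWF2 (0.51), a twinfilin that binds actin monomers and capping protein. SNTB1 (-0.54), a syntrophin of the dystrophin complex, BPGM (-0.50), an enzyme of phosphoglycerate metabolism, and the aquaporin AQP3 (-0.50) were lowest. DES correlated with the 3′ minus 5′ signal of the control transcripts, a measure of RNA or labelling quality (r = -0.28, adjusted permutation p = 2.6e-04), and the part of that measure in these lists was not tested.

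**Figure D3:**
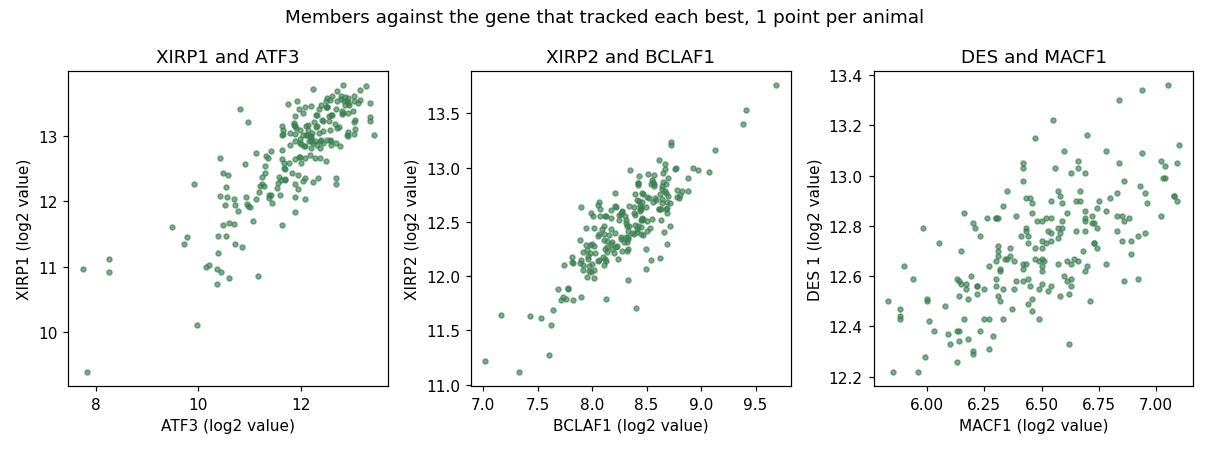
Log2 values of XIRP1, XIRP2 and DES (vertical axes) against those of ATF3, BCLAF1 and MACF1 (horizontal axes), the gene with the highest r for each, 1 point per animal. The r values are 0.82, 0.84 and 0.64, and animals with low XIRP1 tended to have low ATF3.

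The members were then set against drip loss. XIRP2 fell and CAPZB 1 rose with drip loss, by a few percent per SD of the trait, and XIRP1 had a larger negative slope that stopped just short of the threshold. Desmin and vinculin were not called in this fit. With 5 principal components of all probe sets as covariates 0 members were called (0.0543% of all probe sets were), and the slopes were -0.0067 ± 0.018 for XIRP2, 0.041 ± 0.017 for CAPZB 1 and 0.022 ± 0.033 for XIRP1, whose direction turned. Called here means an adjusted p under 0.05 in limma after Benjamini-Hochberg adjustment over 23935 probe sets: 2 of 10 member probe sets were called, where 4.61% of all tested probe sets were. By direction, 1 was higher (1.94% of all were) and 1 lower (2.67% of all were). A slope is the change in log2 value per SD of drip loss (2.22 percentage points).

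XIRP1 had 10.11 in the lowest, 12.67 in the median and 13.48 in the highest animal of the highest quartile group of drip loss (n = 51, 7.25 to 10.82%), against 11.46, 13.1 and 13.77 in the lowest quartile group (n = 52, 1.45 to 3.58%). The quartile groups overlapped over most of their range, and the medians of the 4 quartile groups in rising order of drip loss were 13.1, 13.04, 12.67 and 12.67. The slope was -0.16 ± 0.052 (SE, n = 207), or -10.4% per SD, with an unadjusted p of 0.0025 and an adjusted p of 0.053 in limma. With 1 probe set per gene, adjusted over genes, limma's adjusted p for XIRP1 was 0.040, in a fit that called 7.6% of genes. Spearman's rho of -0.27 exceeded Pearson's r of -0.21 in size (permutation test, adjusted p = 0.0020 and 0.017 over 20 relations), and r was negative in 9 of 10 blocks.

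XIRP2 had 11.61, 12.39 and 13.00 in the lowest, median and highest animal of the highest drip loss quartile group, against 11.64, 12.62 and 13.40 in the lowest quartile group. The quartile groups overlapped widely here too. The slope was -0.089 ± 0.026, or -5.97% per SD (limma, adjusted p = 0.029). Pearson's r was -0.23 and rho -0.22 (permutation test, adjusted p = 0.011 and 0.017), r was negative in 9 of 10 blocks, and it was -0.22 when the 2 animals with the most extreme drip loss were left out.

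CAPZB 1 was 7.99, 8.41 and 8.90 in the highest quartile group of drip loss, against 7.61, 8.28 and 8.68 in the lowest quartile group. Its quartile group medians ran 8.28, 8.30, 8.32 and 8.41 in rising order of drip loss. The slope of 0.057 ± 0.017, or 4.04% per SD, was called (limma, adjusted p = 0.035), with r = 0.22 and rho = 0.20 (permutation test, adjusted p = 0.011 and 0.017). The other probe sets of the gene had slopes of the same sign, 0.060 ± 0.020 for CAPZB 2 and 0.090 ± 0.032 for CAPZB 3, with adjusted p of 0.058 and 0.077 in limma. CAPZB 1 correlated with the 3′ minus 5′ signal of the control transcripts (r = -0.23 and rho = -0.35, adjusted permutation p = 0.0038 and 7e-05 over 70 relations). With that signal as a covariate, the slopes of CAPZB 1, 2 and 3 were 0.050 ± 0.017, 0.040 ± 0.018 and 0.037 ± 0.021 (limma, adjusted p = 0.10, 0.24 and 0.39). XIRP2 also correlated with it (r = 0.19, adjusted permutation p = 0.022) and had a slope of -0.080 ± 0.026 with this covariate (limma, adjusted p = 0.078). Within blocks, r of CAPZB 1 with drip loss was positive in 5 of 10.

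Vinculin and desmin showed no call in limma. VCL 1 had a median of 11.41 in the highest quartile group and 11.50 in the lowest, with a slope of -0.040 ± 0.017 (limma, unadjusted p = 0.023, adjusted p = 0.17). DES 1 had medians of 12.66 in both quartile groups and a slope of 0.016 ± 0.015, with a 95% interval between -0.014 and 0.047 (limma, adjusted p = 0.61). For the dim VCL 2, VCL 3 and DES 2, limma's adjusted p were 0.88, 0.58 and 0.53. DES 2 passed on ranks alone: its rho with drip loss was -0.20 (permutation test, adjusted p = 0.017) and its r -0.08 (adjusted p = 0.63), with r negative in 7 of 10 blocks and -0.02 when centred within them. Its median was 5.12 in the highest quartile group and 5.28 in the lowest, and the groups overlapped. Whether the slopes differ between genes was not tested.

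**Figure D4:**
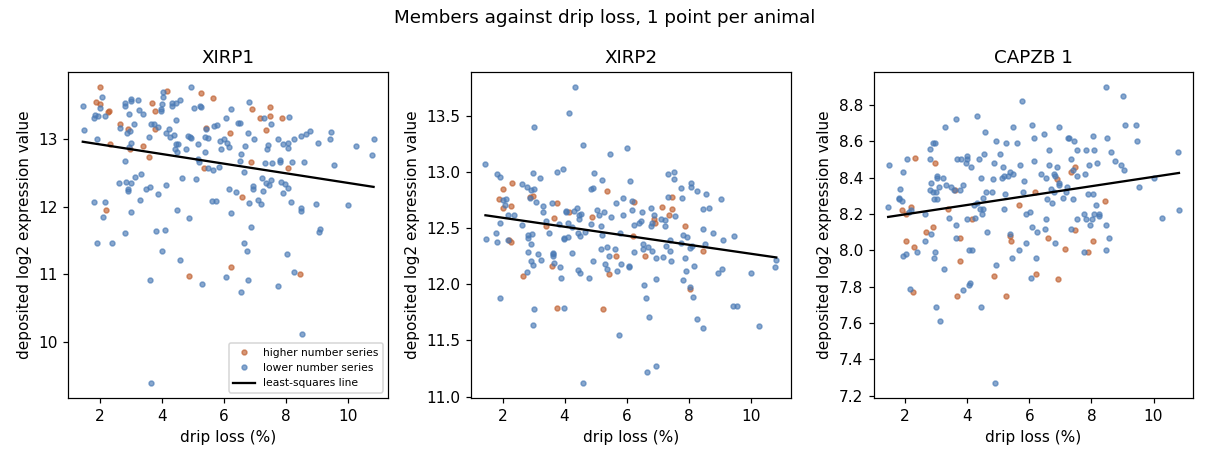
Deposited log2 values of XIRP1, XIRP2 and CAPZB 1 (vertical axes) against drip loss in percent (horizontal axes), 1 point per animal, coloured by number series, with a least-squares line. The lines slope down for both Xin genes and up for CAPZB 1, and points scatter widely around each line.

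The block terms weakened these slopes. With the 10 blocks as a covariate 0 of 10 member probe sets were called in limma (0.623% of all probe sets were), and the slopes were -0.11 ± 0.053 for XIRP1 (adjusted p = 0.34), -0.052 ± 0.026 for XIRP2 (adjusted p = 0.37) and 0.041 ± 0.017 for CAPZB 1 (adjusted p = 0.25). Their unadjusted p in that fit were 0.037, 0.046 and 0.015. Without the 24 low-correlation arrays, XIRP2 had -0.074 ± 0.024 (adjusted p = 0.10), XIRP1 -0.15 ± 0.054 (adjusted p = 0.16), and CAPZB 1 was still called (0.060 ± 0.017, adjusted p = 0.048), where 0.831% of all probe sets were. The product of drip loss and number series was called for 0 of 10 probe sets in limma and for 0 of all 23935. It had an unadjusted p under 0.05 for 0 members and for 1042 of all probe sets.

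Genes of the immediate early response, which cells switch on within minutes of a stimulus, moved with XIRP1 and with drip loss, each to a different extent. Of 19 listed genes 13 were measured and 12 fell with drip loss, where 2.11% of 6765 genes were called lower. Among them were FOS (-0.49 ± 0.078), the AP-1 subunit, EGR1 (-0.42 ± 0.067), a zinc finger transcription factor, and DUSP1 (-0.27 ± 0.039), a phosphatase of MAP kinases. Their r with XIRP1 was 0.44, 0.46 and 0.39. ATF3, the gene closest to XIRP1, was not called for drip loss (-0.13 ± 0.068, limma, adjusted p = 0.28). Of the other genes closest to XIRP1, PPP1R15A was called lower (limma, adjusted p = 0.0021). TRAFD1, TNFRSF12A and ANKRD1 were not (limma, adjusted p = 0.11, 0.060 and 0.36). The mean of the 13 measured genes, which includes ATF3, lay between 7.86 and 10.29 in the highest drip loss quartile group and between 8.36 and 10.94 in the lowest. It correlated with XIRP1 at r = 0.69 and rho = 0.73 (adjusted permutation p = 1.2e-04 over 70 relations, positive in 10 of 10 blocks), with XIRP2 at r = 0.28, and with drip loss at r = -0.41 (adjusted permutation p = 1.4e-04 over 14 relations, negative in 9 of 10 blocks). The part of these genes in the slopes of the members was not tested. The following fit cannot decide it, because the mean holds ATF3, the gene closest to XIRP1, and was chosen with its relation to both known. With this mean as a covariate, an alternative chosen after seeing the data, the XIRP1 slope was 0.068 ± 0.042 (limma, adjusted p = 0.61), the XIRP2 slope -0.053 ± 0.028 (adjusted p = 0.54) and the CAPZB 1 slope 0.055 ± 0.019 (adjusted p = 0.35), and 0.00418% of all probe sets were called. Fibroblast markers, which tracked CAPZB, had a mean between 8.01 and 8.92 in the highest drip loss quartile group and between 7.11 and 8.83 in the lowest, with r = 0.13 to drip loss (adjusted permutation p = 0.16), and their part in the CAPZB slope was not tested.

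**Figure D5:**
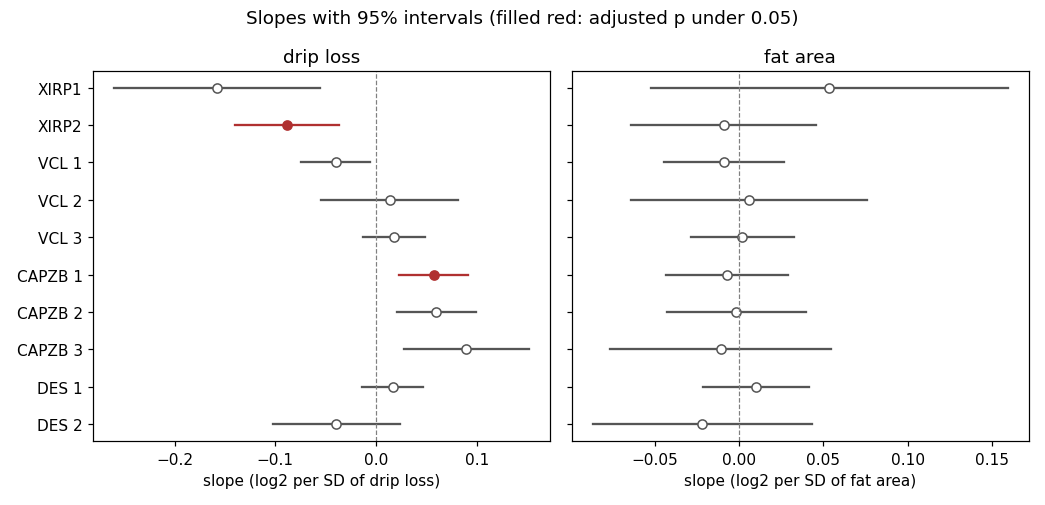
Slopes of the 10 member probe sets on drip loss (left) and fat area (right), in log2 per SD of the trait, with 95% intervals from limma and filled red points where the adjusted p is under 0.05. XIRP2 (-0.089) and CAPZB 1 (0.057) are filled for drip loss, XIRP1 (-0.16) is not, and no point is filled for fat area.

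The members were set beside other genes of the costamere and Z disc. From 6 lists with 97 genes, 48 were measured: 8 of 20 integrin adhesion genes, 4 of 16 of the dystrophin complex, 6 of 9 of intermediate filaments, 13 of 25 of the Z disc, 13 of 17 of thin filaments and their ends, and 4 of 10 of spectrins, ankyrins and filamins. Of the 48, 1 fell and 0 rose, against 2.11% of 6765 genes called lower, 3.96% called higher and 6.08% called in either direction, and their median slope was -0.0028, against 0.0080 over all genes. An unadjusted p under 0.05 was found for 11 of the 48 (22.9%), against 23.9% of all genes, a share near the background. Slopes that were not called included -0.075 ± 0.038 for CMYA5, 0.069 ± 0.025 for the keratin KRT18, 0.053 ± 0.018 for the titin cap TCAP and -0.052 ± 0.019 for the muscle cofilin CFL2. Of the 4 measured regulators among SRF and MEF2 factors and their partners 0 were called.

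The 1 gene that fell was BAG3, a co-chaperone that takes part in the chaperone-assisted turnover of filamin at the Z disc. BAG3 was 11.57 in the lowest animal, 12.44 in the median animal and 13.40 in the highest, with a median of 12.31 in the highest drip loss quartile group and 12.56 in the lowest. Its slope was -0.099 ± 0.026 (limma, adjusted p = 0.012), and it correlated with XIRP1 at r = 0.71. With the blocks as a covariate 0 of the 48 genes were called (0.623% of all probe sets were), and the BAG3 slope was -0.074 ± 0.024 (limma, adjusted p = 0.12). With 5 principal components it was -0.021 ± 0.019, and with the immediate early mean -0.012 ± 0.024.

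Fat area gave no call for any member. Limma called 0 of 10 probe sets, with adjusted p between 0.90 and 1.00, where 0.121% of all tested probe sets were called. An unadjusted p under 0.05 was found for 0 of the 10, against 7.07% of all tested probe sets. XIRP1 had the largest slope, 0.053 ± 0.054 per SD of 3.15 cm2 (95% interval -0.053 to 0.16). Its median was 12.93 in the fattest quartile group (n = 49) and 12.7 in the leanest (n = 50). XIRP2 had medians of 12.43 and 12.56 in these quartile groups, and of the 48 list genes 0 were called, against 0.148% of 6765 genes.

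The difference between the drip loss slope and the fat area slope, tested in 1 limma fit over the animals with both traits, was called for 0 of 10 member probe sets, where 0.347% of all were (lowest adjusted p = 0.20). Unadjusted, 5 had p under 0.05, with the lowest at 0.0067 for XIRP1. The product of the traits was called for 0 members in limma (0.00418% of all probe sets). It had 1 unadjusted p under 0.05 among the members, that of CAPZB 2 (0.0024), and 620 among all 23935 probe sets. These data therefore do not show that the members relate differently to the 2 traits, nor that the drip loss slope depends on fat area.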

How the data were processed

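The deposited values were log2 expression values per probe set, made by the authors with GCOS 1.1.1 and PLIER, per the submitters' processing notes; scaling between arrays and the genome build are not given in the sources used here. They were used without renormalization. After 188 control probe sets had been set aside, 23935 remained, and the array annotation gave 10069 of them 1 gene symbol, 198 several and 13668 none. Where a gene had several probe sets, the one with the highest mean over 207 arrays stood for it.

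Linear models on each trait, in units of its SD, were fitted to all probe sets with limma 3.58.1 (lmFit, eBayes; R 4.3.3), two-sided, with Benjamini-Hochberg adjustment over all tested probe sets and a threshold of 0.05. Correlations across animals used two-sided tests with 100000 permutations (Python 3.11.15, numpy 2.4.6). The code was tested on simulated data. P-values measure the spread between animals, 1 array each.

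Named genes were the members, every costamere or Z disc list gene called for a trait, and the 5 genes with the highest and 3 with the lowest r for each member. Immediate early genes, list genes named by their r, and genes named under single alternatives were chosen after their values were seen. The members, lists and tests were chosen with earlier results of these data known. Low-correlation arrays lay over 3 scaled median absolute deviations below the median. Blocks were runs of 100 sample numbers. Alternatives covered scaling, batches, principal components, trait scale, arrays, covariates, filters and probe set choice.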

Additional observations from a re-analysis of the deposited data

How the results depend on the processing

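Slopes are log2 per SD, called by limma at an adjusted p under 0.05. The cause of each change below was not tested. The called XIRP2 slope (-0.089) was negative under all 20 alternatives and lost its call in 8: -0.052 with blocks, -0.094 and -0.055 in the lower and higher number series alone, -0.0067 with 5 principal components, -0.074 without low-correlation arrays, -0.052 without them and with blocks, -0.080 with the 3′ minus 5′ difference, and -0.053 with the immediate early gene mean, which was added after seeing the data. CAPZB 1 (0.057) was positive under all 20 and lost its call in 9: 0.041 with blocks, 0.050 with number series, 0.058 and 0.0018 in the lower and higher series, 0.041 with 5 components, 0.048 without low-correlation arrays and with blocks, 0.055 without the arrays lacking the spiked RNA, 0.050 with the 3′ minus 5′ difference, and 0.055 with the immediate early mean. XIRP1 gained a call in 6, and turned to 0.022 with 5 components and 0.068 with the immediate early mean. Of 10 member probe sets called for drip loss (2), the count was 4 after quantile normalization (5.06% of all probe sets called) and 5 of 7 among probe sets above the median only (10.6%). It was 3 without the 2 farthest animals (4.23%), with fat area (4.88%) and with smooth muscle markers (3.94%). It was 3 of 5 genes with 1 probe set per gene (7.6%) and with gene means (7.36%). It was 2 with normal scores (4.53%), with the EIF1AY and SRY component (4.61%) and with a trended, robust variance (4.54%). The count was 1 with number series (3.79%), without low-correlation arrays (0.831%) and without arrays lacking the spiked RNA (4.17%). It was 0 with blocks (0.623%), in the lower series (0.823%), in the higher series (0%, so that a count of 0 there says nothing particular to the members) and with 5 components (0.0543%). It was also 0 without low-correlation arrays and with blocks (0.355%), with the 3′ minus 5′ difference (2.03%), and with the immediate early mean (0.00418%). The costamere list count (1 of 48) was 0 with blocks, in either series, with 5 components, without low-correlation arrays and with blocks, and with the immediate early mean. The shares of all probe sets called in these settings are given above. It was 2 of 48 with fat area as a covariate (4.88% of all probe sets called), and 2 of 39 above the median only (10.6%). It was 2 of 48 with 1 probe set per gene (7.6% of genes called) and with gene means (7.36%). TCAP was the gene added to BAG3 in the first 3 of these. With gene means TCAP and ANKRD1 were called and BAG3 was not. For fat area the list count (0) was 1 with blocks (0.167% of all probe sets called), in the lower series (0.167%) and without the 2 farthest animals (0.155%), each time PARVA. Uncalled drip loss slopes that changed sign were CAPZB 2 (-0.0018), VCL 2 (-0.012) and DES 1 (-0.016) in the higher series, VCL 1 (0.0017) and DES 2 (0.021) with 5 components, VCL 2 (-0.037) with the 3′ minus 5′ difference, DES 2 (0.012) without low-correlation arrays and with blocks and (0.022) with the immediate early mean, and DES (-0.012) as a gene mean. Fat area slopes, all uncalled, changed sign for CAPZB 2 (0.00029 after quantile normalization, 0.0023 with number series, 0.069 in the higher series, 6.4e-05 with normal scores, 0.0023 without the 2 farthest animals, 0.0041 without low-correlation arrays, 0.00059 without them and with blocks, 0.00099 without arrays lacking the spiked RNA, 0.0047 with drip loss, 2.2e-05 with the EIF1AY and SRY component, 0.0040 with smooth muscle markers), CAPZB 3 (0.0086 with blocks, 0.048 in the higher series, 0.012 without low-correlation arrays, 0.021 without them and with blocks, 0.00070 with smooth muscle markers), VCL 3 (-0.0027 in the lower series, -0.00029 with 5 components, -0.0014 without the 2 farthest animals, -0.00042 with smooth muscle markers), DES 2 (0.0041 in the higher series, 0.012 with 5 components), DES (-0.0059 as a gene mean), CAPZB 1 (0.0010 with blocks, 0.027 in the higher series, 4.0e-05 without low-correlation arrays and with blocks) and XIRP2 (6.5e-05 with the EIF1AY and SRY component). The correlation of XIRP1 with XIRP2 passed under all 6 alternatives, at r between 0.16 and 0.38. XIRP1 with VCL passed after quantile normalization (0.15) and was -0.14 in residuals from 5 components; XIRP1 with CAPZB did not pass centred in blocks (-0.15), in residuals (-0.12) or as gene means (-0.13); XIRP1 with DES was -0.025 in residuals and passed as gene means (0.20). XIRP2 with VCL was -0.043 in residuals and 0.036 as gene means, neither past the threshold. XIRP2 with CAPZB passed without the 2 farthest animals (-0.16), after quantile normalization (-0.20) and in residuals (-0.28), and XIRP2 with DES in residuals (0.39) and as gene means (0.25). VCL with CAPZB was 0.019 centred in blocks, 0.15 in residuals and 0.35 as gene means; VCL with DES passed after quantile normalization (0.32), in residuals (0.16) and as gene means (0.26); CAPZB with DES did not pass as gene means (-0.062). Gene means mix bright and dim probe sets for VCL and DES; those of CAPZB are all above the median. Values of VCL 2, VCL 3 and DES 2 lie near the floor, which limits what they can show.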

Other observations

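Among the 48 measured costamere and Z disc genes and the 4 regulators, the genes that tracked each member differed in part. The values are r over 207 arrays, chosen after they were seen and given without a test. XIRP1 ran with ANKRD1 (0.78), BAG3 (0.71), HDAC5 (0.70), a deacetylase that represses MEF2 factors, and CRYAB (0.57), a small heat shock protein that binds desmin. XIRP2 ran with MEF2A (0.65), a transcription factor of muscle genes, KLHL41 (0.61), which stabilises nebulin, ITGB1 (0.59), the beta 1 integrin, and NEB (0.55), nebulin itself. ANKRD1 also had r = 0.51 with XIRP2.

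VCL ran with CFL2 (0.55), the muscle cofilin, PDLIM5 (0.55), a Z disc adaptor, and MEF2A (0.53). XIRP2 shared these genes, with r of 0.49, 0.44 and 0.65. CAPZB ran with SNTB1 (0.42), CAP2 (0.40), a cyclase-associated actin regulator, and CAPZA2 (0.37), an alpha subunit of the same capping protein, and against CRYAB (-0.40) and CFL2 (-0.39). DES ran with PDLIM3 (0.58), TCAP (0.46), the titin cap, and FHL1 (0.44), a LIM domain protein of the sarcomere, and against SNTB1 (-0.54). Averaged over all its probe sets, ANKRD1 fell with drip loss (slope -0.22 ± 0.062, limma, adjusted p = 0.016 over genes), in a fit that called 7.36% of genes. Its brightest probe set had -0.084 ± 0.050 (limma, adjusted p = 0.36 over all probe sets), and its other probe sets are not given here.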
